A study of Mus musculus with 6 samples.

Results

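The integrated stress response was examined through 10 genes in long-term and short-term hematopoietic stem cells (LT/ST-HSCs): the transcription factors Atf4, Atf5 and Ddit3, the feedback and growth inhibitors Ddit4, Trib3 and Chac1, and the amino acid supply genes Asns, Psat1, Phgdh and Slc7a11. They were taken by gene symbol from the 26216 symbols of the per-sample expression files, and all 10 were found there. In 6 of the 8 genes that were high enough to be tested the signal was higher in Ltbr-/- than in Ly5.1 cells at an adjusted p under 0.05, as in 10.6% of all tested genes. In 3 of these, Asns, Atf5 and Phgdh, it was higher by at least 1.5-fold, as in 2.72% of all tested genes. The 6 became 4 to 6 when 1 library was left out and 2, Asns and Phgdh, in a model fitted gene by gene with no spread shared between genes. The rise was largest for Asns, at 1.82-fold, and Atf4 itself was 1.22-fold higher. Trib3 and Psat1 did not pass the test, and Chac1 and Slc7a11 were below the level needed for the test.

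In the integrated stress response, kinases that sense amino acid shortage, unfolded protein, heme deficiency or double-stranded RNA phosphorylate the translation factor eIF2, which lowers general protein synthesis and favors translation of a few mRNAs with upstream open reading frames, Atf4 among them. The ATF4 protein then binds, with C/EBP partners, to composite response elements in genes for amino acid synthesis, amino acid uptake and feedback control. Hematopoietic stem cells are known for a low rate of protein synthesis and for a readiness to engage this pathway. ATF4 is controlled largely at translation, and the values here are mRNA levels.

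The study asked which genes depend on the lymphotoxin beta receptor, a TNF receptor family member encoded by Ltbr, in stem cells. Ltbr-/- donor cells (CD45.2, germline knockout) and wild-type Ly5.1 donor cells (CD45.1) had been mixed as bone marrow LSKs and given to Ly5.1/Ly5.2 recipients after lethal irradiation. Stem cells of each genotype were sorted from these chimeras at week 6, with 3 RNA-seq libraries per genotype made from pooled chimeras. Donors were 13 weeks, 10 weeks and 10 to 13 weeks old for the 3 Ltbr-/- libraries and 7 to 13 weeks old for each Ly5.1 library, so age and genotype were not fully separated. The values are the signal deposited by the authors. They were taken to be the regularized log named in the study's methods (counts scaled by library size factors and shrunk for low genes) brought back to the linear scale, a step that no source used here states and on which all fold changes rest. The deposited values do not carry the number of reads per library. P-values measure the spread between these pools, and in such bulk RNA fewer cells of a type and less RNA per cell cannot be told apart.

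As a check of the labels, Ltbr had a signal of 24.2, 26.4 and 23.1 in the Ltbr-/- libraries and of 564.0, 548.7 and 522.0 in the Ly5.1 libraries, a log2 fold change of -4.47 ± 0.08 (SE, adjusted p = 2.15e-32). The stem cell marker Kit (5393 in Ltbr-/-, 5981 in Ly5.1) was high in both groups, while the T cell genes Cd3e and Cd8a and the B cell gene Ms4a1 were between 0.75 and 1.17 in all 6 libraries. Other T and NK cell genes were listed higher, with means of 13.5 in Ltbr-/- and 13.8 in Ly5.1 for Cd3d and 16.8 and 16.6 for Cd3g. The means were 11.3 and 11.8 for Cd4 and 26.8 and 27.2 for Ncr1. The B cell genes Cd79a (mean 292.1 in Ltbr-/-, 191.2 in Ly5.1) and Cd79b (319.2 and 280.5) were expressed. Among 13108 tested genes, those with the highest 50% of mean values, 356 were higher (2.72%) and 8 lower in Ltbr-/- cells when an adjusted p under 0.05 was required together with a change of 1.5-fold or more. At the adjusted p alone, 1388 were higher (10.6%) and 548 lower (4.18%). The median log2 fold change was -0.01 over all tested genes and 0.80 over the cytosolic ribosomal protein genes.

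The promoters of the 10 genes were searched for the core of the composite element to which ATF4 and C/EBP proteins bind, TGATGNAA, on both strands of 250 bases before and 50 bases after each start (RefSeq, GRCm38.p6). An exact match in this window was found in 4 of the 10 genes, Trib3, Chac1, Asns and Slc7a11. The share over the same length was 4.51% of 27025 mouse genes, or 3.97% of 32851 promoters. Elements outside this window or with other bases were not searched for. The 4 stretches with a match are shown because they separate the stress response genes matched in this window from those not matched. They are given 5′ to 3′ on the gene's own strand, with the match in capitals, which reads as its reverse complement where the match lies on the other strand.
Asns (chr6:7693180-7693292, minus strand): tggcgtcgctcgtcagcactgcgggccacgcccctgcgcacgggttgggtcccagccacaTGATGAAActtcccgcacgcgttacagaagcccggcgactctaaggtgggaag
Trib3 (chr2:152344031-152344106, minus strand): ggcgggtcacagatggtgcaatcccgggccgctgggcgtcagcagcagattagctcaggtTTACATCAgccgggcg
Chac1 (chr2:119350992-119351116, plus strand): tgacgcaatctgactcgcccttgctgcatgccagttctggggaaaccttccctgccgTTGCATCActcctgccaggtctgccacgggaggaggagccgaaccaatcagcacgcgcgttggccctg
Slc7a11 (chr3:50443593-50443739, minus strand): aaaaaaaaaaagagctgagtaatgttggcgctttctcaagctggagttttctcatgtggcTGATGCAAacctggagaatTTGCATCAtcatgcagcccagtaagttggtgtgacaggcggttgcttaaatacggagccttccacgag
With the start base counted as 0, the match in Asns began at -23, in Chac1 at -193 and in Trib3 at 14. The Trib3 match lies after the RefSeq start shown here and before the start in the GENCODE annotation. For Asns it is the reverse, with the match before the RefSeq start and after the GENCODE start. Whether these 2 matches count as upstream therefore depends on the annotation. Slc7a11 held 2 matches in opposite directions, at -66 and -47. Of these 4 genes only Asns passed both thresholds between the genotypes, while Trib3 did not pass and the other two were too low to test. Atf5 and Phgdh, the other genes past both thresholds, had no match in this window. In this window the palindromic element TGACGTCA, bound by CREB and ATF dimers, matched none of the 10 genes and 1.79% of all promoters. A match is a run of letters and not a bound site.

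Atf4 encodes the transcription factor at the center of the response (chr15:80255184-80257541, plus strand, GRCm38). Its signal was 5933, 6012 and 6636 in the Ltbr-/- libraries and 5264, 4996 and 4905 in the Ly5.1 libraries. The groups did not overlap, and replicate 3 of Ltbr-/- was the highest of the 6. The log2 fold change was 0.29 ± 0.07 (SE, 95% interval 0.15 to 0.44, adjusted p = 0.00334), short of 1.5-fold. Only 1.06% of all symbols had a higher mean, and per kb of transcript Atf4 had the highest signal of the 10 genes, 3590 in Ltbr-/- and 2930 in Ly5.1 cells. After quantile normalization the log2 fold change was 0.12 and did not pass (adjusted p = 0.206), and without Ltbr-/- replicate 3 it was 0.24 with an adjusted p of 0.0564.

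Atf5, a close relative of Atf4 whose mRNA is likewise subject to translational control (chr7:44812256-44816658, minus strand), had a signal of 621.7, 645.7 and 722.3 in Ltbr-/- and of 383.3, 393.0 and 460.4 in Ly5.1 cells. Each Ltbr-/- library lay above each Ly5.1 library by more than the range within either group. The log2 fold change was 0.69 ± 0.10 (SE, adjusted p = 8.19e-07), past both thresholds. Exons of Atf5 overlap those of Nup62 on the opposite strand, and whether the authors counted by strand was not given in the sources used here; for Nup62 itself the change was -0.07 ± 0.09 on the log2 scale (SE, adjusted p = 0.669).

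Ddit3 encodes CHOP, the C/EBP relative known for its part in death after prolonged stress (chr10:127290774-127296288, plus strand). Its signal was 465.2, 441.2 and 388.9 in Ltbr-/- and 296.9, 352.4 and 401.2 in Ly5.1 cells. The groups overlapped, since Ly5.1 replicate 3 was above Ltbr-/- replicate 3. The log2 fold change was 0.31 ± 0.10 (SE, adjusted p = 0.0376). Without Ly5.1 replicate 1 it was 0.20 (adjusted p = 0.268). The call was also lost without Ltbr-/- replicate 1 (log2 fold change 0.25, adjusted p = 0.165), Ltbr-/- replicate 2 (0.29, 0.105) or Ly5.1 replicate 2 (0.32, 0.0803), and at the same fold with no filter on low values (0.0670) or no variance trend (0.0841). Exons of Ddit3 overlap those of Mars, the methionyl-tRNA synthetase gene, on the opposite strand, and for Mars the change was 0.12 ± 0.08 on the log2 scale (SE, adjusted p = 0.383).

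Among the feedback genes, Ddit4 encodes REDD1, an inhibitor of mTORC1 (chr10:59949669-59951834, minus strand). It had a signal of 586.4, 559.8 and 628.3 in Ltbr-/- and of 470.0, 428.6 and 502.5 in Ly5.1 cells. The groups did not overlap, although the lowest Ltbr-/- library was close to the highest Ly5.1 library. The log2 fold change was 0.34 ± 0.09 (SE, adjusted p = 0.00978), and the call was lost without Ltbr-/- replicate 3 (adjusted p = 0.0743) and without Ly5.1 replicate 2 (0.0720).

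Trib3, a pseudokinase that is induced by ATF4 and CHOP and restrains both (chr2:152337422-152344032, minus strand), had a signal of 158.9, 161.1 and 138.7 in Ltbr-/- and of 150.2, 130.1 and 121.6 in Ly5.1 cells. The groups overlapped, and the log2 fold change of 0.19 ± 0.09 (SE, 95% interval 0.01 to 0.38) did not pass (adjusted p = 0.166). Chac1, which encodes an enzyme that degrades glutathione and is a sensitive ATF4 target (chr2:119351229-119354381, plus strand), was listed between 2.16 and 2.24 in the 6 libraries. No difference was detectable for Chac1 at this level, and none was tested. The interval for Trib3 did not reach 1.5-fold.

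The amino acid supply genes held the largest change. Asns encodes asparagine synthetase and is a classical ATF4 target (chr6:7675169-7693254, minus strand). Its signal was 1980, 1895 and 2033 in Ltbr-/- and 1103, 1109 and 1038 in Ly5.1 cells. Each library of Ltbr-/- stood far above each of Ly5.1, with an SD of 69.7 and 39.3 around means of 1969 and 1084. The log2 fold change was 0.86 ± 0.08 (SE, 95% interval 0.69 to 1.03, adjusted p = 2.13e-10), which ranked 112 of the 13108 tested genes. No other annotated gene shares a stretch of read length with its transcript.

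Phgdh and Psat1 encode the first and the second enzyme of serine synthesis from glycolysis. Phgdh (chr3:98313170-98339990, minus strand) had a signal of 3743, 3574 and 3697 in Ltbr-/- and of 2326, 2366 and 2496 in Ly5.1 cells. The groups were far apart, and the log2 fold change was 0.62 ± 0.08 (SE, adjusted p = 6.34e-08), just past 1.5-fold. The value is uncertain, because 46.9% of the 76-base windows of the Phgdh transcript also occur in other annotated genes, most often in the pseudogene Gm7901, and the authors' counting could have split such reads. After quantile normalization Phgdh kept an adjusted p of 1.29e-06 and fell under 1.5-fold (log2 fold change 0.55).

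Psat1 (chr19:15904678-15947337, minus strand) had a signal of 1542, 1433 and 1550 in Ltbr-/- and of 1389, 1516 and 1295 in Ly5.1 cells. The groups overlapped, and the log2 fold change of 0.11 ± 0.09 (SE, 95% interval -0.06 to 0.28, adjusted p = 0.443) did not pass. Slc7a11, the cystine and glutamate exchanger (chr3:49892526-50443614, minus strand), was listed between 9.48 and 10.1 in the 6 libraries, below the level needed for the test, with overlapping groups. Asns and Phgdh were also in the gene list the study drew from these same samples, so their rise here is no independent evidence of it.

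**Figure D1:**
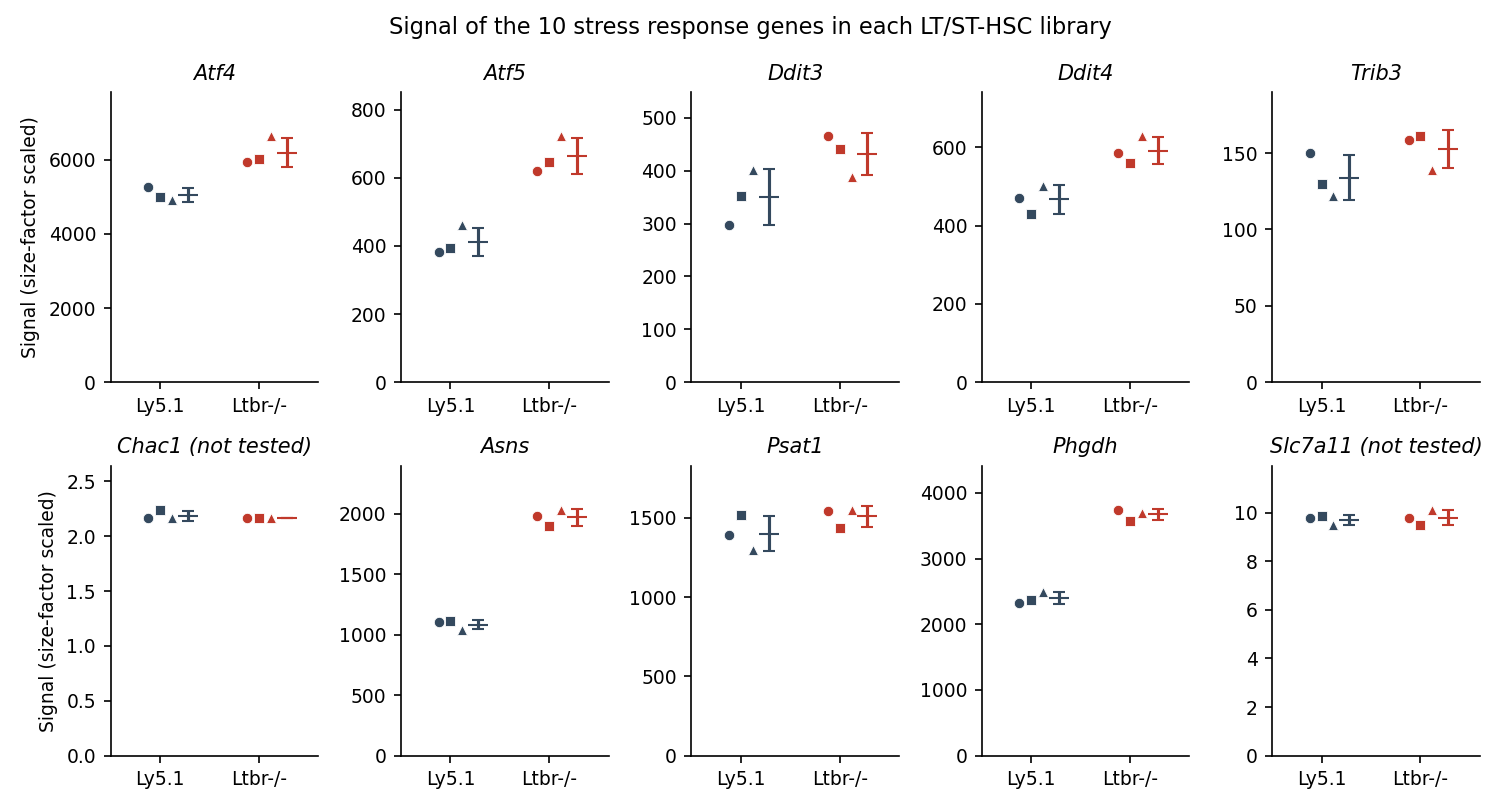
Signal (size-factor scaled, linear axes from 0) of each of the 10 genes in the 3 Ly5.1 (blue) and 3 Ltbr-/- (red) libraries, with marker shape for the replicate number and the mean ± SD beside each group. The groups are apart for Atf4, Atf5, Ddit4, Asns and Phgdh and overlap for the other 5 genes.

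Read together, all 8 tested genes had a log2 fold change above 0, as did 46.4% of all tested genes, and their median was 0.33 against -0.01 over all tested genes. The 3 of 8 past both thresholds stand beside 2.72% of all tested genes higher by the same rule, and the 6 of 8 at the adjusted p stand beside 10.6%. None of the 8 was lower at the adjusted p, by which 4.18% of tested genes were. In 5 of the 8 all Ltbr-/- values were above all Ly5.1 values, as in 17.0% of tested genes. Calls were more frequent among highly expressed genes: in the highest quartile of tested genes, which held 4 of the 8, 8.67% were higher by both thresholds and 22.4% at the adjusted p. An exact two-sided permutation test of 3 against 3 libraries cannot go below p = 0.1, which was reached by Atf4, Atf5, Ddit4, Asns and Phgdh.

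**Figure D2:**
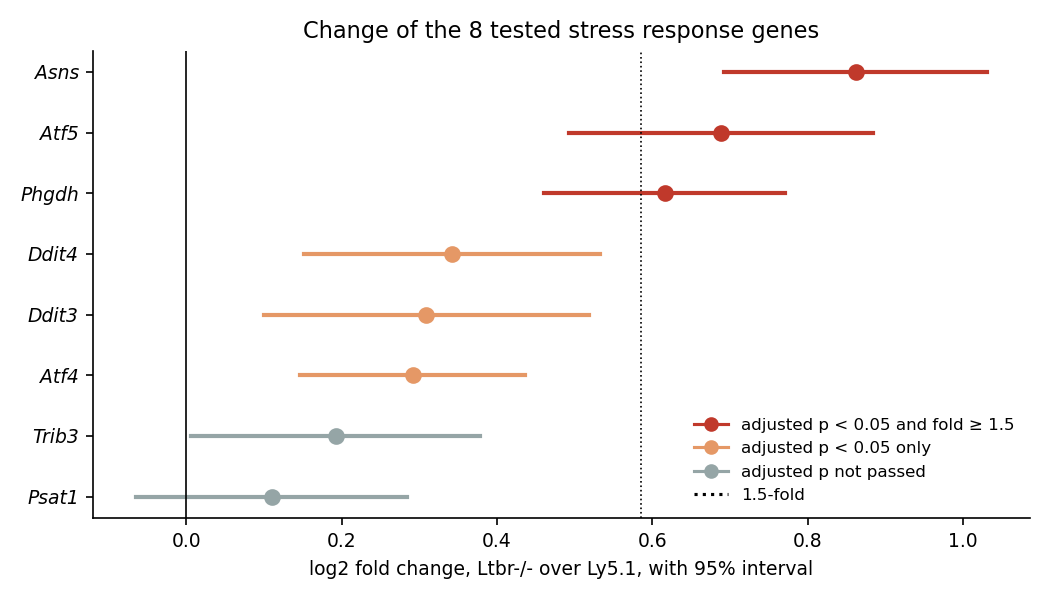
Log2 fold change (points) with 95% interval (bars) of the 8 tested genes, Ltbr-/- over Ly5.1, colored by the thresholds passed, with a dotted line at 1.5-fold. The whole interval of Asns, 0.69 to 1.03, lies beyond the line, and those of Atf5 and Phgdh cross it.

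To compare the change of Atf4 with that of the other genes, each was set against Atf4 in the same library. Within each library, the log2 ratio of Asns to Atf4 signal was -1.58, -1.67 and -1.71 in Ltbr-/- and -2.25, -2.17 and -2.24 in Ly5.1 cells, without correction for transcript length. The groups did not overlap, and the difference between them was 0.57 (exact two-sided permutation test, p = 0.1, the smallest possible). The same difference was 0.40 for Atf5 and 0.32 for Phgdh, again with all Ltbr-/- libraries above all Ly5.1 libraries (exact p = 0.1 each). For Psat1 it was -0.18, with all Ltbr-/- libraries below all Ly5.1 libraries (exact p = 0.1), and -0.11 without Ly5.1 replicate 2. For Ddit3 (0.02), Ddit4 (0.05) and Trib3 (-0.10) the groups overlapped.

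The median change of the ribosomal protein genes was larger than that of the stress response genes other than Asns, so the direction depended on the reference. Relative to the median of the ribosomal protein genes in the same library, Asns differed by less than 0.01 between the genotypes with overlapping groups, and the other 7 were lower in each Ltbr-/- library than in each Ly5.1 library, from -0.17 for Atf5 to -0.75 for Psat1 (exact p = 0.1 each). With libraries centered on these genes, the median of all tested genes moved to -0.87, 0 of the 8 members were higher and 2, Psat1 and Trib3, lower by both thresholds, beside 91.0% of all tested genes lower by this rule. Relative to that shifted median, Asns stood at 0.87, Atf5 at 0.70, Phgdh at 0.63 and Atf4 at 0.30. These distances are the same without the centering, which moves all genes of a library by 1 amount, so they are no further test of the rise.

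**Figure D3:**
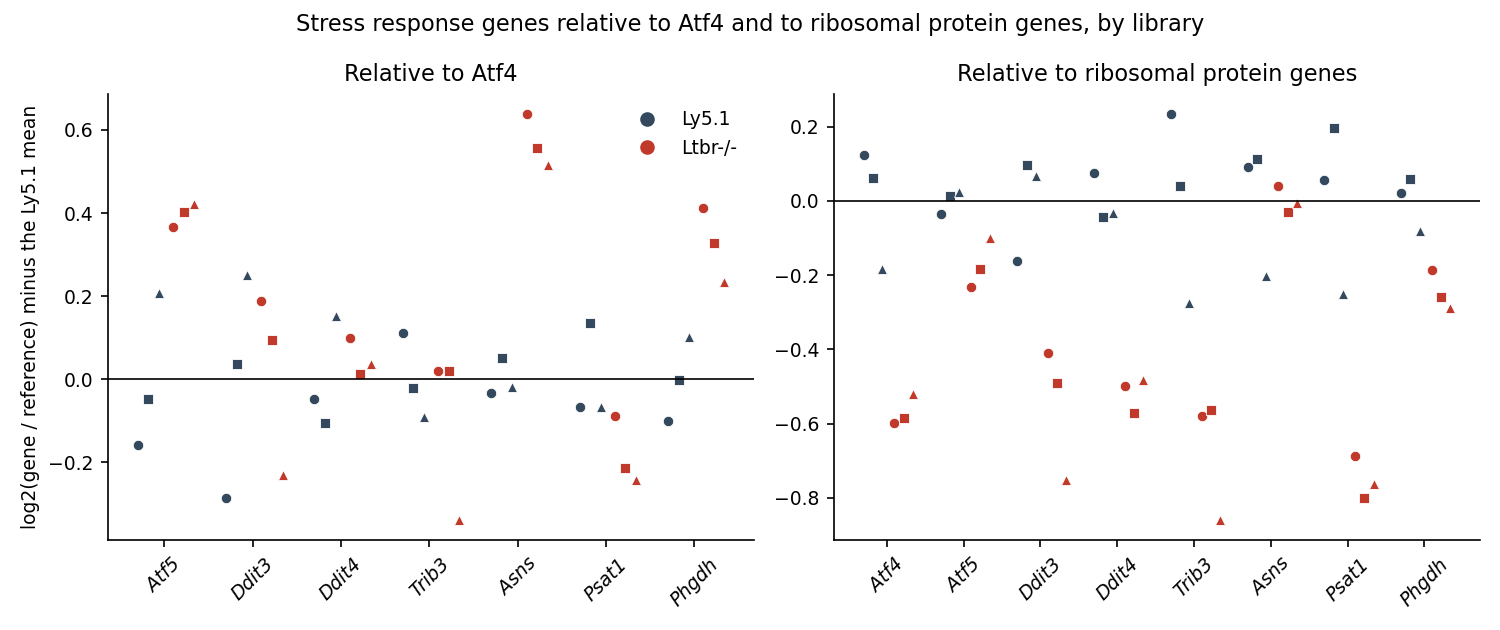
Log2 ratio of each gene to Atf4 (left) and to the median of the ribosomal protein genes (right) in each Ly5.1 (blue) and Ltbr-/- (red) library, minus the Ly5.1 mean, with marker shape for the replicate number. The difference between the genotypes is 0.57 for Asns relative to Atf4, and for 7 of 8 genes the Ltbr-/- libraries lie below the Ly5.1 libraries relative to the ribosomal protein genes.

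Upstream of Atf4, the mRNAs of the 4 eIF2 kinases all had a log2 fold change under 0, where 46.4% of all tested genes were above 0. Eif2ak2 (PKR, which senses double-stranded RNA) was at 463.0, 343.5 and 318.7 in Ltbr-/- and at 464.4, 461.5 and 466.0 in Ly5.1 cells, a log2 fold change of -0.33 ± 0.11 (SE, adjusted p = 0.0323). One Ltbr-/- library, replicate 1, was at the Ly5.1 level, so the groups overlapped. The log2 fold change of Eif2ak1 (HRI, the heme sensor) was -0.26 (adjusted p = 0.0511), that of Eif2ak3 (PERK, the sensor of unfolded protein in the endoplasmic reticulum) -0.19 (0.190) and that of Eif2ak4 (GCN2, the sensor of uncharged tRNA) -0.13 (0.351), and none of these passed. Of 14 tested genes for eIF2, its exchange factor eIF2B, its phosphatases and related regulators, Eif2b2 was higher (0.32, adjusted p = 0.0184). Impact, an inhibitor of GCN2 and 1 of these regulators, was lower (-0.30, 0.0296), and the rest did not pass. Kinase activity and eIF2 phosphorylation are not read by mRNA levels.

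The counts in the lists around the pathway stand beside 10.6% of all tested genes higher and 4.18% lower at the adjusted p. Past both thresholds 2.72% were higher. The lists overlap, so their counts are not separate evidence. Slc3a2, Shmt2, Mthfd2 and Lonp1 each stand in more than 1 of them. Some of the stress response genes above, Asns, Phgdh and Ddit3 among them, are counted again in these lists. Of 33 other tested genes listed as ATF4 targets, 9 were higher and 1, Vldlr, was lower at the adjusted p, with 2 past both thresholds and a median log2 fold change of 0.07. These 2 were Slc3a2, the shared heavy chain of amino acid transporters, at 6132, 6597 and 6706 in Ltbr-/- against 3664, 3519 and 4215 in Ly5.1 cells (log2 fold change 0.77 ± 0.08 SE, adjusted p = 2.83e-10), and Eif4ebp1, an inhibitor of cap-dependent translation, at 1697, 1746 and 1869 against 1157, 882.6 and 1094 (0.77 ± 0.09 SE, 3.54e-08). The groups were apart for both. Well-known targets that did not pass were Sesn2 (-0.05, adjusted p = 0.772), Nupr1 (-0.03, 0.855), Atf3 (-0.01, 0.906) and Slc7a5 (0.12, 0.429). Atf3 was low, with means of 19.7 in Ltbr-/- and 19.8 in Ly5.1 cells, so shrinkage of low genes limits what it can show.

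Of the 12 tRNA synthetase genes listed as targets, 5 were higher at the adjusted p, none by 1.5-fold, and the median was 0.14: Sars at 0.51 (adjusted p = 3.09e-06), Gars at 0.48 (4.80e-06), Yars at 0.33 (0.00791), Tars at 0.31 (0.00724) and Aars at 0.30 (0.00826). These enzymes charge tRNA with serine, glycine, tyrosine, threonine and alanine. No gene of this list was lower at the adjusted p.

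Around Asns, 4 of 18 tested genes of asparagine, glutamine, proline and aspartate metabolism were higher at the adjusted p (median 0.08). Past both thresholds beside Asns was Asnsd1, which carries an asparagine synthetase domain, at 4628, 4382 and 4841 in Ltbr-/- and 2325, 2699 and 2688 in Ly5.1 cells (log2 fold change 0.85 ± 0.08 SE, adjusted p = 7.28e-11). Around Phgdh and Psat1, 3 of 16 tested serine, glycine and one-carbon genes were higher: Phgdh, and the mitochondrial folate enzymes Shmt2 (0.33, adjusted p = 0.00244) and Mthfd2 (0.29, 0.0256). Psph, the third enzyme of serine synthesis, did not pass (-0.07, 0.669). Asnsd1 and Slc3a2 too were in the study's list from these samples.

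Of 15 tested cystine and glutathione genes, 4 were higher at the adjusted p (median 0.04), and the largest rise was that of Hmox1, the heme-degrading enzyme, at 2726, 2647 and 2740 in Ltbr-/- against 1077, 1225 and 1355 in Ly5.1 cells. Its log2 fold change was 1.16 ± 0.09 (SE, adjusted p = 2.80e-13), the only change over 2-fold in the lists around the stress response, and Hmox1 is chiefly known as a target of the oxidative stress and heme-sensing factors. Of 6 tested C/EBP genes, partners of ATF4, 4 were higher (median 0.31). Cebpe, a granulocyte maturation factor, led with a signal of 1439, 1384 and 1238 in Ltbr-/- against 787.0, 647.2 and 845.6 in Ly5.1 cells and passed both thresholds (0.84 ± 0.10 SE, 1.06e-08). Cebpb (0.50, 0.000151), Ddit3 and Cebpd (0.31, 0.0175) passed the adjusted p alone.

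Of 29 tested genes listed under the IRE1 and ATF6 arms of the unfolded protein response, 5 were higher and 2 lower (median 0.03). A place in this list does not mean that a gene answers to these arms alone. The disulfide oxidase gene Ero1l was past both thresholds, at 2515, 2522 and 2805 against 1329, 1212 and 1628 (log2 fold change 0.92 ± 0.09 SE, adjusted p = 4.12e-10), Xbp1 was higher (0.33, 0.0145), the chaperone gene Hyou1 was lower (-0.28, 0.0135), and the chaperone gene Hspa5 did not pass (-0.12, 0.216). Of 12 mitochondrial unfolded protein response genes, 4 were higher, with Lonp1 at 0.53 (9.55e-07) and Hspe1 at 0.51 (3.13e-05), and none lower (median 0.09). In the ATF and CREB family, Atf5 and Atf4 were the 2 of 16 tested genes that passed (median 0.03). Of 3 Tribbles genes none passed (median 0.09, with Trib1 at 0.09, adjusted p = 0.373, and Trib2 at -0.06, 0.430), and of 9 tested mTORC1 inhibitor genes 2, Nprl2 and Ddit4, were higher (median -0.05).

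**Figure D4:**
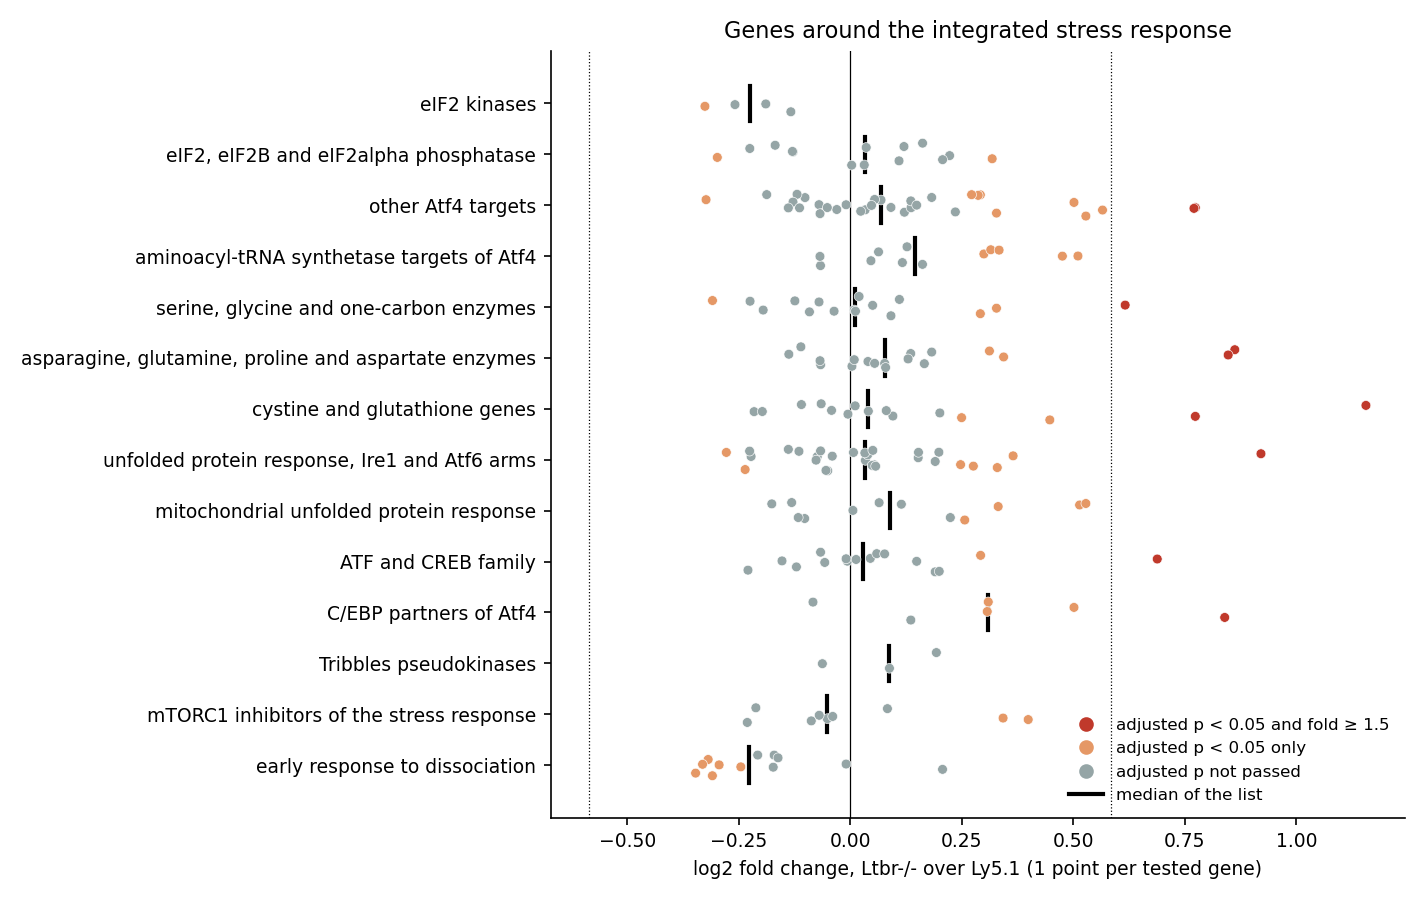
Log2 fold change, Ltbr-/- over Ly5.1, of each tested gene (points, colored by the thresholds passed) in the lists around the stress response, with the median of each list as a black bar and dotted lines at 1.5-fold in either direction. Most points lie near 0, with Hmox1 at 1.16 the farthest to the right.

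Markers of other cells and of handling moved in the same samples. All 9 neutrophil and granule genes, Mpo and Elane among them, were lower in Ltbr-/- cells at the adjusted p, with summed signals of 43919 to 44489 in Ltbr-/- and 57547 to 62249 in Ly5.1 libraries. Of 6 tested mast cell and basophil genes Cma1 and Cpa3 were higher and Prss34 lower (sums of 7511 to 8081 and 4120 to 4706), with the defining gene Tpsb2 listed at 1 in every library. Most of these sums was Cma1, with means of 5470 in Ltbr-/- and 2195 in Ly5.1 cells. Only 2 of the 6 had a log2 fold change above 0, and the median was -0.07. Of 12 early response genes that tissue dissociation induces, 6, Jun and Fos among them, were lower and none higher (sums of 64743 to 69402 and 78126 to 83312). Of 10 stem cell genes Gata2 was higher and Ly6a, Cd34 and Meis1 lower (sums of 19731 to 20048 and 21166 to 21987). Of 7 monocyte genes Emr1 and Cd68 were higher and Lyz2 lower, of 6 erythroid genes Hba-a1 was higher, of 4 megakaryocyte genes Itga2b was higher and Pf4 lower, of 4 B cell genes Cd79a was higher, and of 2 T and NK cell genes none passed. The part of these differences in the rise of Asns, Atf5 and Phgdh was not tested.

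By likeness over the 6 libraries' log2 values, given as a description since the libraries share only 2 genotypes, the tested genes near to Atf4 included Trappc1 (Pearson r 0.994), 2610020H08Rik (0.992), Spint2 (0.992) and Gnl1 (0.990). Those nearest to Asns were Me2 (0.999), Trmt112 (0.997), Polr2g (0.997), Blvrb (0.996) and Ndufb9 (0.996). Among the stress response genes, Phgdh was the nearest to Asns (r 0.985, rank 73) and Asns the nearest to Atf4 (r 0.946, rank 173).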

How the data were processed

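RNA of sorted LT/ST-HSCs (3 Ltbr-/- and 3 Ly5.1 libraries) had been sequenced as 76-base single reads from stranded mRNA libraries. The authors assembled reads with SeqMan NGen and ArrayStar on GRCm38 (mm10), and the submitters' processing notes name DESeq2; the deposited signal was taken as their regularized log value, scaled by size factors and shrunk for low genes, on the linear scale; this back-transformation is an assumption. Counts were not among the values, which therefore do not show how many reads lie behind each.

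Each file held 26595 rows; for 75 repeated symbols the row with the highest mean was kept. Values were log2 transformed with no pseudocount, the highest 50% of symbols by mean over all samples were tested, and groups were compared with limma 3.58.1 (empirical Bayes with trend, R 4.3.3) over 13108 genes, with Benjamini-Hochberg adjustment. A gene was called at an adjusted p under 0.05 together with a 1.5-fold change or more, as in the study. Single values within libraries had exact two-sided permutation tests. The fit was tested on simulated data. Named were all 10 genes, Ltbr, the 4 eIF2 kinases, up to 6 called genes per list by size of change, and the 5 genes most like Atf4 and Asns, of which 1 is not reported here; other genes with values were chosen after their values were seen. Genes and lists were chosen with earlier results of these data known. Gene positions are from GENCODE (GRCm38), promoters from RefSeq (10 of 10 genes matched), and signal per kb used the annotated transcript length. Alternatives were a replicate block, other filters, scalings, pseudocounts and variance models, other fold thresholds, sums of repeated symbols, and leaving out each library.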

Additional observations from a re-analysis of the deposited data

How the results depend on the processing

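The count of 3 stress response genes past both thresholds was also 3 in each fit that left out 1 library (3 to 3), and the 6 called genes of the other lists were 6 to 7. At a fold of at least 1.2 the counts were 6, all higher, and 39, of which 29 were higher and 10 lower. At a fold of at least 2 they were 0 and 1. The shares of all tested genes at these other folds were not counted. Among the other lists, quantile normalization called 10 (6 higher, 4 lower) and the linear model fitted gene by gene 3.

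Centering on the ribosomal protein genes ended all calls of higher genes. It called 2 of the stress response genes and 144 of the other lists lower, beside 91.0% of all tested genes by this rule. The log2 fold changes were -0.57 for Atf4, -0.17 for Atf5, -0.55 for Ddit3 and -0.52 for Ddit4. They were -0.67 for Trib3, -0.75 for Psat1 and -0.24 for Phgdh. There the construction moves all genes by the rise of that family; for the other changes the cause was not tested. Atf5 was not called by the gene-by-gene model (adjusted p = 0.0564; 6.55e-08 to 0.0564 over its alternatives other than that centering), and Phgdh fell under 1.5-fold after quantile normalization.

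Same-numbered libraries of the 2 genotypes correlated at 0.03, -0.01 and 0.09 in their deviations from the group mean. Differently numbered ones correlated at -0.07 to 0.05. With 3 libraries per genotype these values cannot settle whether replicate numbers pair the samples. With a replicate block 3 stress response genes and 6 others were called, and over all genes 356 higher and 8 lower, as without it, and Ddit3 had an adjusted p of 0.0621. Precision is limited by 3 pools per genotype and by values without counts; shrinkage limits what Chac1 and Slc7a11 can show (log2 fold changes of -0.02 and 0.01 without the filter, adjusted p = 0.472 and 0.858).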
